A study of Homo sapiens with 2 samples.

Results

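The proteasome genes of HCT15, a long-established line of human colorectal cancer cells, are described here on 1 array of cells with an shRNA against LYAR and 1 array of cells with a scramble shRNA. They are the genes that the array files name PSMA, PSMB, PSMC, PSMD, PSME, PSMF or PSMG with a number, apart from PSMB8 and PSMB9. This gave 79 of the 45033 probe sets and 41 of the 23619 genes. They comprise 16 genes of the core particle, 17 of the regulatory particle, 3 assembly chaperones and 5 activators or inhibitors. No gene is named PSMG in the files, because these assembly chaperones stand there under older names, and they are given apart below.

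The LYAR-shRNA cells stably carried a hairpin against LYAR, a nucleolar zinc-finger protein, and the scramble-shRNA cells a non-silencing hairpin. Both were made with the same lentiviral vector, packaged in 293T cells, sorted on the GFP it carries and grown on gelatin-coated plates. More than 1 hairpin against LYAR was designed. The title of the LYAR-shRNA sample carries the mark L2, and the labels do not say whether it names the hairpin. They also do not say whether the sorted cells were 1 clone. Cy3-labelled cDNA from total RNA was hybridised to single-colour NimbleGen arrays, and the authors deposited a linear RMA intensity for each probe set. Log2 intensities were averaged over the probe sets of a gene and are given below as intensities, and every difference is log2 of LYAR-shRNA minus log2 of scramble-shRNA. With 1 array per group there was no replicate and no test, and the number of arrays limits the precision. The only spread that can be given is that between probe sets of the same gene. It had a pooled SD of 0.276 on the log2 scale over the 24 proteasome genes with several probe sets that passed the intensity filter, or 0.162 without the probe sets near the random control probes. In such bulk RNA, fewer cells of a type and less RNA per cell cannot be told apart.

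LYAR had 1036 in LYAR-shRNA cells, against 1925 in scramble-shRNA cells, a difference of -0.89 that goes with the labels. It rests on 1 probe set, and 4.82% of passing genes lay lower. Of 12 colon epithelial markers 9 passed the intensity filter, 5 of them above 0 and 4 below. EPCAM had 8235 in LYAR-shRNA cells and 8626 in scramble-shRNA cells, and KRT8 differed by 0.00. CDH1 was higher by 0.52, with probe sets from 0.03 to 0.94, and VIL1 by 0.51. TFF3, higher by 0.67, passed only through the LYAR-shRNA array. In scramble-shRNA cells 1 of its 2 probe sets was near the random probes. Averaged over their probe sets, KRT20, CDX1, all 4 markers of neuronal or embryonic kidney character and 5 of 6 fibroblast markers were below 2 times the random probes on both arrays, although CDX1, NEFL, DCN and PDGFRB had single probe sets above that bound. The remaining fibroblast marker, COL1A1, had 243 in LYAR-shRNA cells and 140.2 in scramble-shRNA cells, where 1 of its 2 probe sets was near the random probes. The part of these markers in the proteasome values was not tested.

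The proteasome is the protease that breaks down proteins tagged with ubiquitin. Its core particle is a barrel of alpha and beta rings with the proteolytic sites inside. The regulatory particle caps the barrel: the ATPases of its base unfold the substrate and feed it in, and its lid holds the enzyme that removes ubiquitin. Dedicated chaperones build both particles, other caps such as the PA28 complexes can replace the regulatory particle, and the transcription factor NFE2L1 binds antioxidant response elements in promoters of proteasome genes. Tumour cells commonly make these subunits in large amounts.

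As a whole the proteasome genes lay close to 0. The filter asked for an intensity of at least 105.9 on the brighter array, and 40 of the 41 genes passed, all but PSMA8. Of these 40 genes, 19 were above 0 and 21 below, where 54.6% of the 12682 genes that passed were above 0 and 45.4% below. Their median difference was -0.05, against 0.05 for all passing genes, and -0.06 over all 41 genes. No proteasome gene reached 2-fold in either direction, a size that 5.06% of passing genes reached upward and 3.56% downward. At 1.5-fold, 0 of 40 genes were higher, against 15.0% of passing genes, and 2 were lower, PSMD3 and PSMD12, against 11.0%. PSMD12 reached this size only through a dim probe set that gives a bound, and without it the count was 1.

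Brightness bears on such counts. The 40 genes had mean intensities of 482 to 16046, and among the 6304 passing genes in that range 53.1% were above 0 and 46.9% below, and the shares were 8.12% higher and 7.34% lower at 1.5-fold, and 1.52% and 1.11% at 2-fold. The SD of the differences was 0.27 over the 40 proteasome genes, against 0.43 over those 6304 genes. Passing genes were also divided into 10 classes of equal size by intensity. In its own class each of 39 proteasome genes lay between the 5th and the 95th percentile of the differences, and PSMD3 lay below the 5th.

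**Figure D1:**
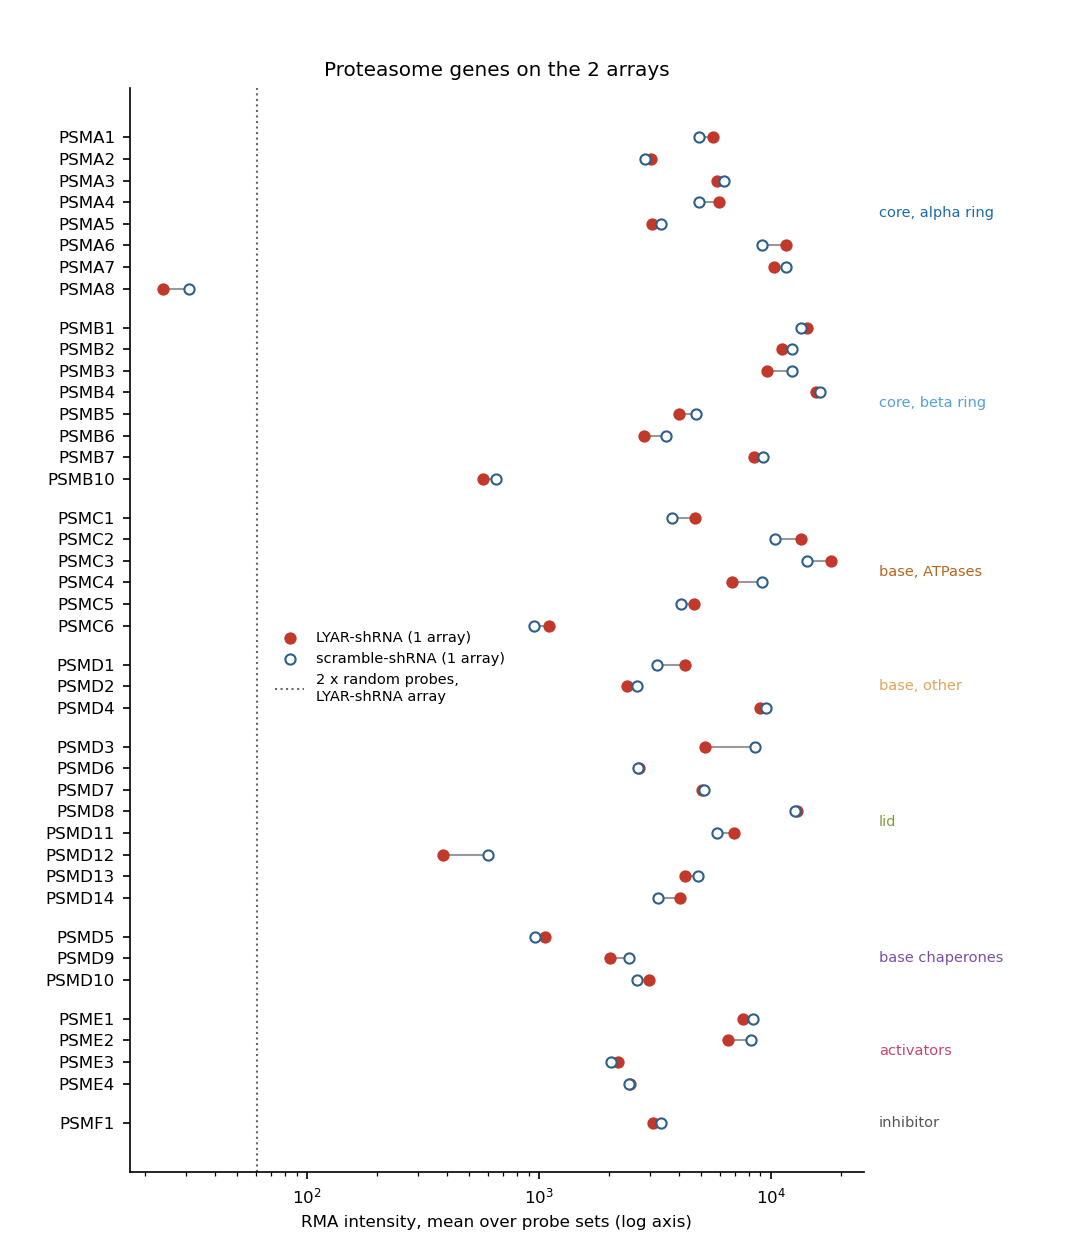
RMA intensity (log axis) of the 41 proteasome genes in LYAR-shRNA cells (filled) and in scramble-shRNA cells (open), 1 array each, as the mean over each gene's probe sets and grouped by subcomplex. The 2 arrays lie close together for nearly all genes, PSMD3 and PSMD12 are furthest apart toward scramble-shRNA cells, and PSMA8 lies left of the dotted line at 2 times the random probes of the LYAR-shRNA array.

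The alpha ring, which gates the entrance of the barrel, was split. PSMA6 (2 probe sets) had 14376 and 9317 in LYAR-shRNA cells, against 11342 and 7387 in scramble-shRNA cells. Its probe sets were 0.34 and 0.33 higher in LYAR-shRNA cells, the highest gene mean of the ring. PSMA4 (2 probe sets) had 4404 and 8067 in LYAR-shRNA cells, against 3933 and 6051 in scramble-shRNA cells, a mean difference of 0.29. PSMA1 (3 probe sets) had 4132, 6323 and 6723 in LYAR-shRNA cells, against 3584, 5512 and 5974 in scramble-shRNA cells. All its probe sets lay between 0.17 and 0.21, so this gene and PSMA6 were higher with little spread between probe sets.

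PSMA2, also of this ring, gave no common direction. Its probe sets had 5731 and 1605 in LYAR-shRNA cells, against 4568 and 1807 in scramble-shRNA cells, or 0.33 and -0.17, which average 0.08. The other standard alpha subunits were lower. PSMA7 had 13776, 8258 and 9671 in LYAR-shRNA cells, against 14880.0, 9825 and 10697 in scramble-shRNA cells, with a mean of -0.17. PSMA5 had 4356 and 2143 in LYAR-shRNA cells, against 4666 and 2400.0 in scramble-shRNA cells, a mean of -0.13. PSMA3 had 3671, 7571, 7187 and 5870.1 in LYAR-shRNA cells, against 3886, 7591, 7767 and 6709 in scramble-shRNA cells, a mean of -0.10. Each probe set of these 3 genes was lower in LYAR-shRNA cells, by less than the larger of the spreads given above.

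PSMA8, the testis form of an alpha subunit, measured at most 31.4 over its 4 probe sets in LYAR-shRNA cells and at most 39.4 in scramble-shRNA cells. All 4 were below 2 times the random probes on both arrays, so no fold is given. The 7 standard alpha subunits had a median of 0.08, with 4 above 0 and 3 below.

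The beta ring leaned the other way, with 7 of 8 genes lower in LYAR-shRNA cells and a median of -0.17. Its 3 proteolytic subunits in ordinary cells were all lower. PSMB6, the caspase-like subunit, had 2823 in LYAR-shRNA cells against 3523 in scramble-shRNA cells, a difference of -0.32. PSMB5, the chymotrypsin-like subunit that proteasome inhibitors such as bortezomib target, had 3997 in LYAR-shRNA cells against 4756 in scramble-shRNA cells, or -0.25. PSMB7, the trypsin-like subunit, had 8485 in LYAR-shRNA cells against 9191 in scramble-shRNA cells, or -0.12. Each of these genes rests on 1 probe set, and only the PSMB6 difference exceeds the larger of the spreads given above.

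The subunits of the beta ring without a proteolytic site differed by similar amounts. PSMB3 had 9600.1 in LYAR-shRNA cells against 12318 in scramble-shRNA cells, a difference of -0.36 from 1 probe set and the lowest of the ring. PSMB4 had 15558 in LYAR-shRNA cells against 16263 in scramble-shRNA cells, or -0.06, from 1 probe set. PSMB2 (3 probe sets) had 10261, 11462 and 11923 in LYAR-shRNA cells, against 12207, 12068 and 12733 in scramble-shRNA cells, all lower, with a mean of -0.14. PSMB1 was the exception in the ring, at 0.08, but its probe sets disagreed: they had 14549 and 13943 in LYAR-shRNA cells, against 15447 and 11791 in scramble-shRNA cells, or -0.09 and 0.24. With the brightest probe set of each gene all 8 beta genes were lower in LYAR-shRNA cells, and with centring, lowess or quantile normalization 7 of 8 were. These runs use the same 2 arrays and add no independent support.

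PSMB10, which replaces the trypsin-like subunit in the interferon-induced immunoproteasome, had 665 and 494 in LYAR-shRNA cells, against 698 and 612 in scramble-shRNA cells, a mean of -0.19. The other immunoproteasome subunits, outside the set described here, were PSMB9 with 5198 in LYAR-shRNA cells against 6992 in scramble-shRNA cells (-0.43) and PSMB8 with 2496 in LYAR-shRNA cells against 2452 in scramble-shRNA cells (0.03).

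**Figure D2:**
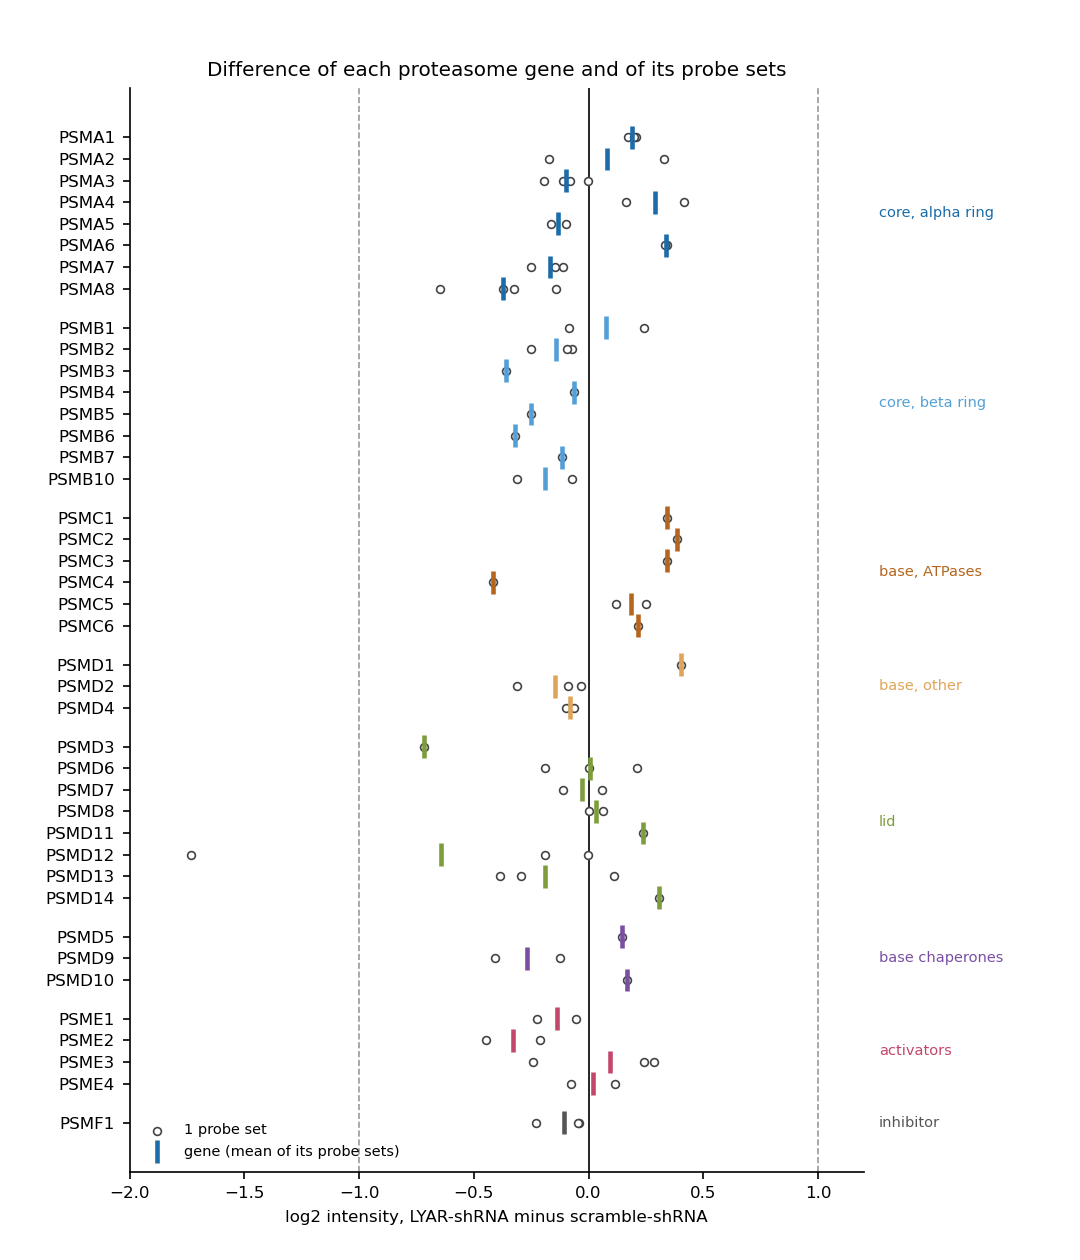
Log2 difference, LYAR-shRNA minus scramble-shRNA, of each proteasome gene (bar, the mean of its probe sets) and of each of its probe sets (circles), with dashed lines at 2-fold. No gene mean crosses a dashed line, 1 probe set of PSMD12 does, whose value in LYAR-shRNA cells is near the random probes and so gives only a bound (at least 2.37-fold lower), PSMA8 is near the random probes in all its probe sets, 7 of 8 beta ring genes lie left of 0 and 5 of 6 ATPases right of it.

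In the regulatory particle, 5 of the 6 ATPases were higher in LYAR-shRNA cells and the ring had a median of 0.28. The split was also 5 to 1 with centring, lowess or quantile normalization and with the brightest probe set. These runs use the same 2 arrays, and most of these genes have 1 probe set, so they could hardly change it and add no support. PSMC2 had 13519 in LYAR-shRNA cells against 10349.7 in scramble-shRNA cells, a difference of 0.39, and PSMC3 had 18068 in LYAR-shRNA cells against 14250 in scramble-shRNA cells, or 0.34. PSMC1 had 4715 in LYAR-shRNA cells against 3725 in scramble-shRNA cells, also 0.34. These 3 genes, subunits of the hexameric motor, have 1 probe set each. PSMC6, from 1 dimmer probe set, had 1107 in LYAR-shRNA cells against 954 in scramble-shRNA cells, or 0.21. PSMC5 had 7341 and 2935 in LYAR-shRNA cells, against 6168 and 2703 in scramble-shRNA cells, or 0.25 and 0.12, both higher. PSMC4 went against its ring, with 6816 in LYAR-shRNA cells against 9104 in scramble-shRNA cells, a difference of -0.42 from 1 probe set. All 6 subunits form 1 ring in equal number. Its genes spanned from -0.42 to 0.39, and 16.9% of passing genes lay lower than PSMC4 while 24.6% lay higher than PSMC2. A range over 6 genes cannot be set against the spread between probe sets of 1 gene, so the width was not tested.

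Of the 3 base subunits that are not ATPases, PSMD1, a large scaffold, had the highest difference of all 40 genes. It had 4254 in LYAR-shRNA cells against 3214 in scramble-shRNA cells, a difference of 0.40 from 1 probe set, and 23.5% of passing genes lay higher. PSMD2, the other scaffold, had 2682, 2222 and 2291 in LYAR-shRNA cells, against 2747, 2361 and 2848 in scramble-shRNA cells, all lower, with a mean of -0.15. PSMD4, a ubiquitin receptor, had 8594 and 9311 in LYAR-shRNA cells against 9213 and 9734 in scramble-shRNA cells, a mean of -0.08.

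The lid held both genes past 1.5-fold. PSMD3 (gene ID 5709, on chromosome 17 from 35390585 to 35407738 in hg18), a structural lid subunit, had 5213 in LYAR-shRNA cells against 8559 in scramble-shRNA cells. This difference of -0.72, 1.64-fold lower, comes from 1 bright probe set, and 7.73% of passing genes lay lower. PSMD12 (gene ID 5718, on chromosome 17 from 62764494 to 62793183), also structural, averaged -0.64, but 1 of its 3 probe sets decided this value. That probe set had 43.4 in LYAR-shRNA cells, within 2 times the random probes, against 144.0 in scramble-shRNA cells, at least 2.37-fold lower. The brighter probe sets had 1477 and 898 in LYAR-shRNA cells, against 1685 and 900.4 in scramble-shRNA cells, and gave -0.19 and 0.00. Without the dim probe set PSMD12 stood at -0.10, so PSMD3 alone then passed 1.5-fold.

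At the other end of the lid were PSMD14, the deubiquitinase that strips ubiquitin from substrates, and PSMD11. PSMD14 had 4035 in LYAR-shRNA cells against 3261 in scramble-shRNA cells, or 0.31, and PSMD11 had 6913 in LYAR-shRNA cells against 5872 in scramble-shRNA cells, or 0.24, each from 1 probe set. The remaining lid genes lay from -0.19 for PSMD13 to 0.03 for PSMD8. PSMD13, PSMD6 and PSMD7 had probe sets of both signs. Over the 8 lid genes 4 were above 0 and 4 below, with a median of -0.01, and with centring on all passing genes 2 were above 0 and 6 below.

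The assembly chaperones named PSMD all act on the base. PSMD10, which encodes the oncoprotein gankyrin, had 2973 in LYAR-shRNA cells against 2647 in scramble-shRNA cells, or 0.17. PSMD5 had 1065 in LYAR-shRNA cells against 964 in scramble-shRNA cells, or 0.14, and PSMD9 had 2058 and 1999 in LYAR-shRNA cells against 2247 and 2655 in scramble-shRNA cells, a mean of -0.27 with both probe sets lower. The chaperones that build the core were matched by gene ID to their current names. PSMG1, listed as DSCR2, had 5573 in LYAR-shRNA cells against 5041 in scramble-shRNA cells (0.14), PSMG2, listed as TNFSF5IP1, had 517 in LYAR-shRNA cells against 520.0 in scramble-shRNA cells (-0.01), and PSMG3, listed as MGC10911, had 1273 in LYAR-shRNA cells against 1293 in scramble-shRNA cells (-0.02). PSMG4 had 94.6 in LYAR-shRNA cells and 73.9 in scramble-shRNA cells and did not pass the filter. PSMB11, a thymus subunit listed under a placeholder name, was below 2 times the random probes on both arrays.

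Set side by side, the core particle had a median of -0.12 over its 16 genes, the regulatory particle 0.03 over 17 and the assembly chaperones 0.14 over 3. The core minus regulatory difference was -0.16 with PSMA8 counted, whose probe sets are all near the random probes, and -0.15 over passing genes. With 1 array per group no spread between replicates was there to set this difference against. With all genes centred on the median of passing genes, a shift of 0.05, the regulatory particle turned to -0.02, so its direction is not settled. The core and the chaperones kept their sign under each alternative run, but these runs use the same 2 arrays and settle no direction. The 3 chaperones were of both signs and had a mean of 0.01. Grouping by symbol put the PSMG genes in their place. The widest contrast between subcomplexes was the ATPase ring over the beta ring, 0.44, and it was picked out after the values were seen.

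**Figure D3:**
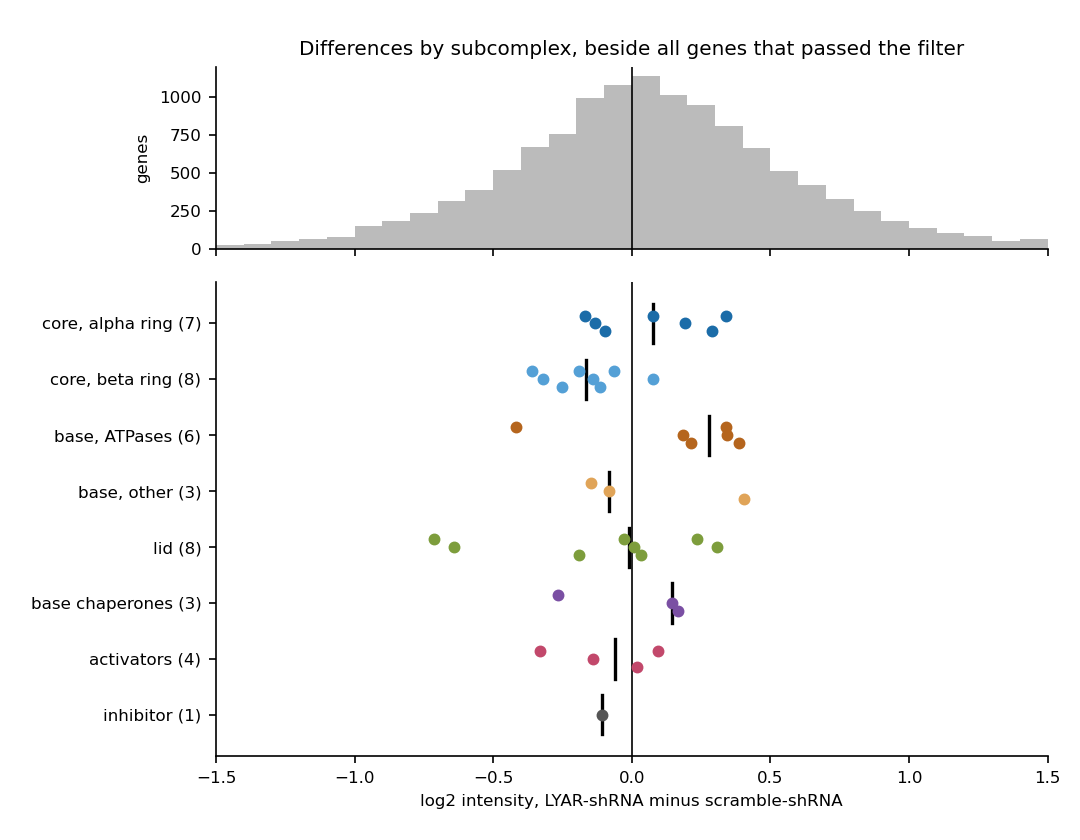
Log2 difference, LYAR-shRNA minus scramble-shRNA, of the 40 proteasome genes that passed the filter by subcomplex (points, with the number of genes in brackets and the median as a bar), under a histogram of all passing genes within 1.5 of 0. The ATPase median is 0.28 and the beta ring median -0.17, and all points lie within the body of the histogram.

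The number of probe sets went with the size of the differences. The 16 passing genes with 1 probe set had a median absolute difference of 0.31, and 9 of them differed by at least 0.3 in size. The 24 genes with several probe sets had a median of 0.14, and 3 of them reached that size. Among all passing genes in the same intensity range the medians were 0.28 for 2766 genes with 1 probe set and 0.26 for 3538 with more. Of the 24 genes, 17 had probe sets of 1 sign and 7 of both signs. Among the genes at either end of the set, PSMD3, PSMC4, PSMD1, PSMC2, PSMC3 and PSMC1 all rest on 1 probe set, and PSMD12 on 3.

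**Figure D4:**
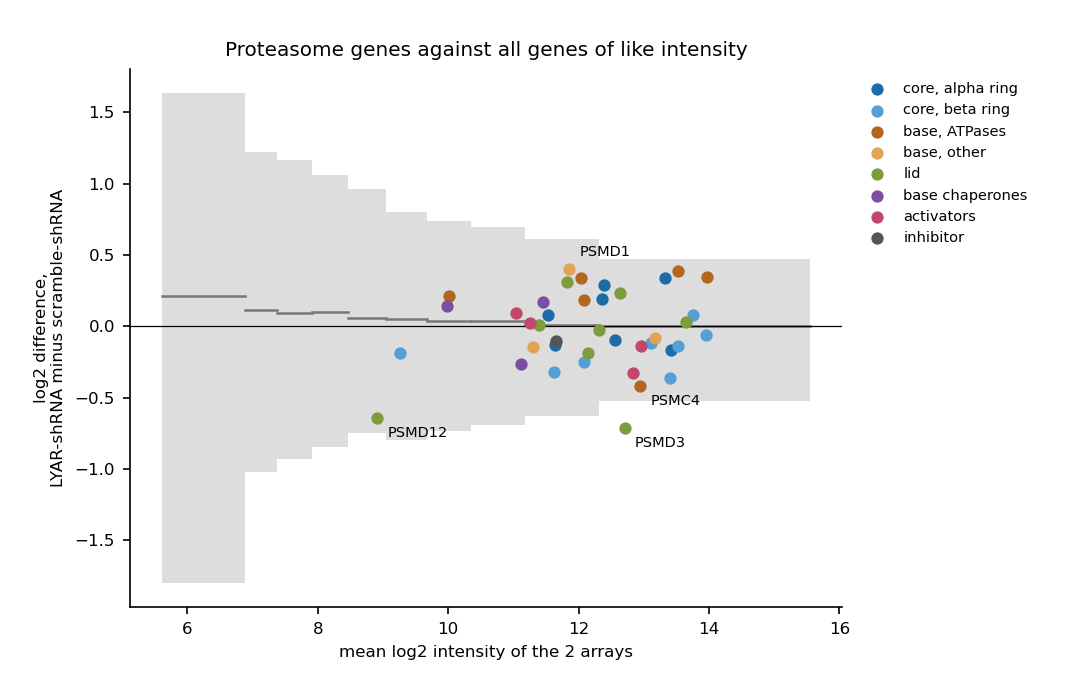
Log2 difference, LYAR-shRNA minus scramble-shRNA, against mean log2 intensity for the 40 proteasome genes that passed (points, coloured by subcomplex). Grey bands span the 5th to 95th percentile of all passing genes in 10 intensity classes, with their medians as lines, and PSMD3 alone lies outside its band.

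The alternative caps differed by small amounts. PSME2, of the interferon-induced PA28 alpha-beta complex, had 7242 and 5889.6 in LYAR-shRNA cells, against 8395 and 8022 in scramble-shRNA cells, a mean of -0.33 with both probe sets lower. Its partner PSME1 had 7907 and 7239.9 in LYAR-shRNA cells against 8206 and 8452 in scramble-shRNA cells, a mean of -0.14, again with both lower. These genes lie 4397 bp apart on chromosome 14 in hg18. PSME3, the nuclear PA28 gamma, had 3160.1, 3130.5 and 1057 in LYAR-shRNA cells, against 2671, 2570.3 and 1252 in scramble-shRNA cells, or 0.24, 0.28 and -0.24. PSME4, which encodes PA200, had 2814 and 2173 in LYAR-shRNA cells against 2601 and 2289 in scramble-shRNA cells, a mean of 0.02, and PSMF1, the inhibitor PI31, averaged -0.11 over 3 probe sets that were all lower.

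Immune cells also express PSMB8, PSMB9, PSMB10, PSME1 and PSME2, of which PSMB8 stood at 0.03 and the other genes were lower. Of 6 immune cell markers, 3 passed the filter, CD79A, CD3E and CD14. CD79A had 35.5 in LYAR-shRNA cells against 339 in scramble-shRNA cells, and CD3E had 30.1 in LYAR-shRNA cells against 106.4 in scramble-shRNA cells. These 2 passed only through the scramble-shRNA array, so a lower value in LYAR-shRNA cells was set by the filter. Their LYAR-shRNA values were under 2 times the random probes and are bounds. CD14 had 215 in LYAR-shRNA cells against 343 in scramble-shRNA cells, with each probe set lower. The summed intensity of the list was 408 in LYAR-shRNA cells and 936 in scramble-shRNA cells. These sums count the bounds of CD79A and CD3E as values, so no fold is read from them. As averages, 3 of the 6 markers were below 2 times the random probes on both arrays. Among these was PTPRC, the pan-leukocyte marker, at 56.8 in LYAR-shRNA cells and 63.0 in scramble-shRNA cells, with 3 of its 4 probe sets above that bound in LYAR-shRNA cells and 1 in scramble-shRNA cells. LYZ, also among the 3, had 35.5 in LYAR-shRNA cells and 29.4 in scramble-shRNA cells. Their part in the proteasome values was not tested.

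Promoters were read for the motif of the antioxidant response element, because NFE2L1 acts through it and was itself higher, as given below. The motif was thus chosen after these values were seen, and a link between it and the differences was not tested. RefSeq held the 250 bases before a transcript start, in build GRCh38.p14, for 36 of the 41 genes. The letters TGACNNNGC, on either strand, were found in 10 of these 36 genes (27.8%), and in 13.2% of the 27305 genes with a window. Those 27305 genes were not limited to genes that passed the filter. The stretches shown are those of the lowest and highest genes that hold it, written 5′ to 3′ on the strand of the gene, with the motif in capitals.
PSMD3: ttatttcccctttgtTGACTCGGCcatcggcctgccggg
PSMD12: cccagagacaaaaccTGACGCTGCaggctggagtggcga
PSMB3: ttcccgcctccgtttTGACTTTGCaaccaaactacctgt
PSME2: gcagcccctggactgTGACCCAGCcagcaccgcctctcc
PSMC5: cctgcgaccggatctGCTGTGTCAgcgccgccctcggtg
PSMA4: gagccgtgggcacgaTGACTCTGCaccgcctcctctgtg

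The PSMD3 stretch is chr17:39980755-39980793 on the plus strand, with the motif 37 to 29 bases before the start. That of PSMD12 is chr17:67366719-67366757 on the minus strand, 165 to 157 bases before, and that of PSMB3 is chr17:38752622-38752660 on the plus strand, 104 to 96 bases before. PSME2 has chr14:24146762-24146800 on the minus strand, 175 to 167 bases before, PSMC5 has chr17:63827649-63827687 on the plus strand with the motif on the opposite strand 57 to 49 bases before, and PSMA4 has chr15:78540645-78540683 on the plus strand, 126 to 118 bases before. The 10 genes that hold the motif, which also include PSMD5, PSMD9, PSME1 and PSME4, had a median difference of -0.20, with 4 above 0 and 6 below. This median counts PSMD12 at -0.64, a value that a dim probe set giving a bound decided. Without that probe set PSMD12 stood at -0.10, and the median would be less negative, between PSME1 at -0.14 and PSMD12 at -0.10. The 25 passing genes whose window lacks it had a median of 0.03, with 14 above 0. A second motif, CCAAT on either strand, was in 16 of 36 genes (44.4%) against 37.0% of all genes with a window, and those 16 had a median of 0.06, with 10 above 0. The 19 passing genes whose window lacks it had a median of -0.11, with 8 above 0. No proteasome window had the 2 motifs overlapping. These are matches of letters, and binding was not measured.

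Genes that work with the proteasome were close to 0 as a list, and its highest members were a shuttle factor, a scaffold and NFE2L1. Of 29 partners 28 passed the filter, all but DDI2, 19 of them above 0 and 9 below where 54.6% of all passing genes were above 0, with a median of 0.09 over all 29 against 0.05 for all passing genes. At 1.5-fold 2 of the 28 were higher, against 15.0% of all passing genes, and 0 were lower, against 11.0%. None reached 2-fold, against 5.06% higher and 3.56% lower. UBQLN1, a shuttle factor that carries ubiquitin-tagged proteins to the proteasome, had 395 in LYAR-shRNA cells against 242 in scramble-shRNA cells, or 0.71. ECPAS, a proteasome scaffold, had 2977 in LYAR-shRNA cells against 1936 in scramble-shRNA cells, or 0.62 from 1 probe set. NFE2L1, the transcription factor of proteasome genes, had 4753 in LYAR-shRNA cells against 3202 in scramble-shRNA cells, a mean of 0.57 over 3 probe sets that lay from 0.43 to 0.76.

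At the lower end of the partners stood ZFAND2A, an arsenite-inducible proteasome-binding protein, at -0.41 (1270.2 in LYAR-shRNA cells against 1692 in scramble-shRNA cells) from 1 probe set. ADRM1, a ubiquitin receptor of the base, had 5175 in LYAR-shRNA cells against 6599 in scramble-shRNA cells, or -0.35, and NPLOC4, a cofactor of the unfoldase VCP, averaged -0.31. The deubiquitinases of the regulatory particle, USP14 and UCHL5, averaged 0.17 and -0.02, each with probe sets of both signs. POMP, which helps assemble the core, and SEM1, the smallest lid subunit, differed by 0.16 and 0.11.

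**Figure D5:**
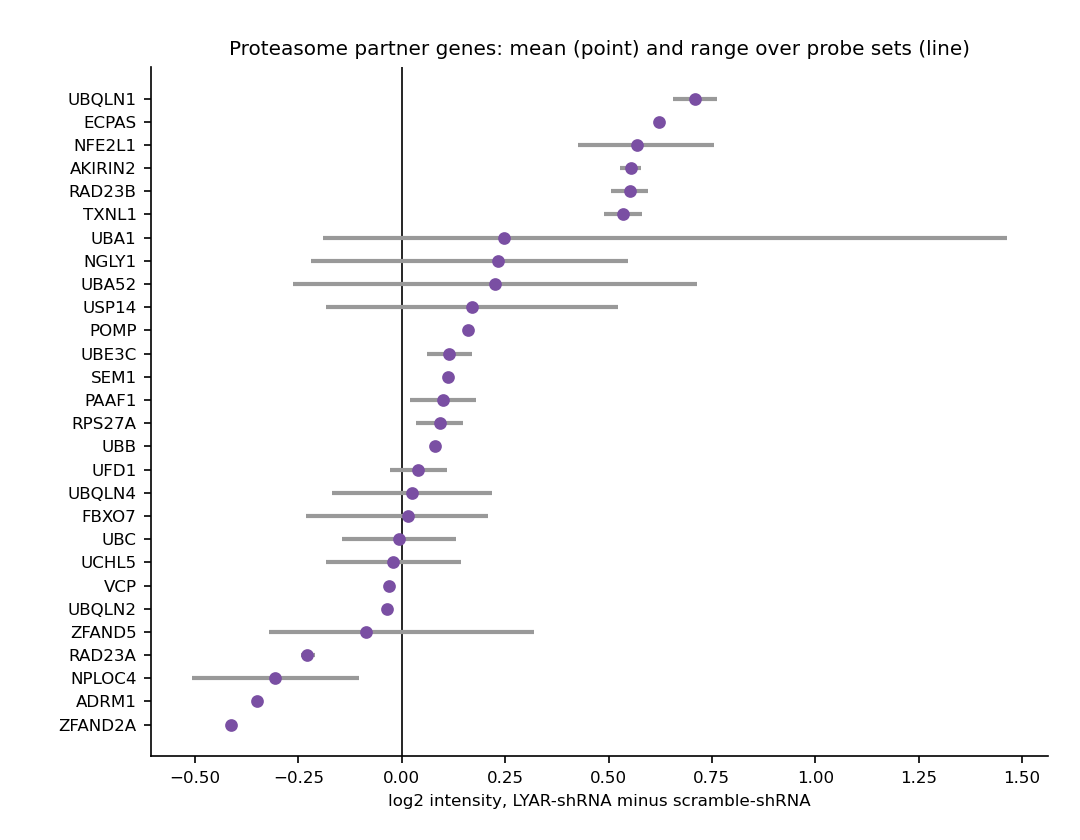
Log2 difference, LYAR-shRNA minus scramble-shRNA, of the 28 partner genes that passed the filter, as the mean over probe sets (point) and their range (line). UBQLN1, ECPAS and NFE2L1 lead at 0.71, 0.62 and 0.57, ZFAND2A is lowest at -0.41, and 19 of 28 points lie right of 0.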

How the data were processed

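RNA of 1 LYAR-shRNA and 1 scramble-shRNA sample was measured, and both were grouped by the shRNA in their labels. The submitters' processing notes name RMA, which the authors used to make the deposited linear intensity of each probe set. The sources used here do not give its version or settings, or which arrays were normalized together. If RMA gave both arrays 1 distribution, a shift of most genes together would not be visible. A deposited score named as a standard error had no stated scale and was not used. The file headers give hg18 positions and 3 probes for each of the 79 probe sets.

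Symbols were updated through gene IDs with the RefSeq table of GRCh38.p14, which held 90.6% of 42947 probe sets with an ID. Log2 intensities were averaged over the probe sets of a gene, with no pseudocount. A gene passed if its brighter array reached the median of all genes' means. A value under 2 times the random probes (30.3 in LYAR-shRNA cells, 32.7 in scramble-shRNA cells, from 5000 probes) was taken as a bound. No test was possible with single arrays, so genes were counted at 1.5-fold and 2-fold. The counting at 2-fold was tested on simulated data with less spread between probe sets than these data have. The counting at 1.5-fold was not tested in that way.

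All core and ATPase genes, and elsewhere the 2 highest and 2 lowest of a subcomplex, were described; of the partners, the 3 at each end and 6 fixed genes. Members and lists were chosen with earlier results of these data known. Python 3.11.15, pandas 2.3.3 and statsmodels 0.14.6 were used.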

Additional observations from a re-analysis of the deposited data

How the results depend on the processing

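The alternatives were the brightest probe set per gene, the deposited series value table, centring, removal of a lowess trend, quantile normalization, a pseudocount of 32, the intensity filter, the grouping of the base chaperones, the genes counted as core, and the mean in place of the median. A further 2 were chosen after seeing the data, leaving out probe sets near the random probes and adding PSMB11 and the PSMG genes by current symbol. Of 117 values, 113 moved by less than the pooled SD between probe sets (0.272, PSMA8 included) or, for counts, by less than 1.5 times; that SD is of single probe sets, larger than the medians themselves, and so shows little about their stability. The exception was the number of proteasome genes at least 1.5-fold lower, which is 2 and became 1 with the brightest probe set, the series value table, the pseudocount and without probe sets near the random probes, because PSMD12 then stood at -0.19, -0.10, -0.47 and -0.10. The median of all proteasome genes stayed below 0, from -0.12 to -0.02, and that of the core from -0.18 to -0.08. The regulatory particle ranged from -0.02 to 0.11 and was below 0 with centring only. The core stood 0.15 to 0.21 lower than the regulatory particle (-0.21 to -0.15). PSMD3 ranged from -0.77 to -0.71. Centring left 16 genes above 0 and 24 below. No paired analysis was possible because each group had 1 array. The 5 proteasome probe sets absent from the series value table were the 4 of PSMA8 and the dim one of PSMD12, and signals near the random probes limit what can be said of both genes.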

Other observations

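The position of the proteasome genes in the genome was also read, from the hg18 transcripts in the files, as values only. All 4 genes on chromosome 1 that passed the filter, PSMA5, PSMB2, PSMB4 and PSMD4, were lower in LYAR-shRNA cells, from -0.14 to -0.06. Each was smaller in size than either spread between probe sets. All 3 on chromosome 2, PSMD1, PSMD14 and PSME4, were higher, from 0.02 to 0.40, but PSME4 had probe sets of 0.11 and -0.08. Of all passing genes, on any chromosome, 45.4% were below 0 and 54.6% above. Chromosomes 3, 9, 11 and 19 held proteasome genes of both signs. Chromosomes 14 and 17 held 7 genes each, with 3 above 0 and 4 below on either. On chromosome 17 the lower genes were PSMB3, PSMB6, PSMD3 and PSMD12, and PSMB3 and PSMD3 lie 1216581 bp apart. The higher ones there were PSMC5, PSMD11 and PSME3, so the genes of this chromosome spanned from -0.72 to 0.24.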
